A study of Mus musculus with 6 samples.

Results

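Cytosolic ribosomal proteins are the proteins that, with ribosomal RNA, build the large and small subunits of the ribosome. The genes were taken by symbol: names that start with Rpl or Rps followed by a number, alone or with the suffix a, x, l, l1 or al, together with Rplp0, Rplp1, Rplp2 and Rpsa. This gave 83 of the 23644 genes listed, 51 of the large subunit and 32 of the small subunit, and 7 of them carry paralog-like names (Rpl3l, Rpl6l, Rpl7l1, Rpl22l1, Rpl36al, Rps27l and Rps4l). RNA sequencing was done on 4T1 cells, a mouse mammary tumour line, in 3 libraries of Carmil3 knockout cells and 3 libraries of control cells that carry the wild type gene. Carmil3 encodes a protein that binds actin capping protein. Per the labels the knockout cells were clones, each grown from 1 cell. Neither the number of clones nor the way the gene was disrupted is stated, and the labels do not tell whether replicates were separate cultures. The p-values below measure only the spread between these 6 libraries, which may be technical, and clone and genotype cannot be told apart.

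Most vertebrate ribosomal protein genes are read into short, very abundant messengers that begin with a run of pyrimidines, the 5′ terminal oligopyrimidine or TOP motif. Growth signals through mTORC1 and the RNA-binding protein LARP1 control how these messengers are translated and stored. Since most of the proteins are present in equal numbers per ribosome, surplus protein is degraded. Mammalian genomes hold many processed copies of these genes, and a few expressed paralogs, such as Rpl22l1 and Rps27l, whose proteins can take the place of their partners.

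The start sites below are shown because the TOP motif is the sequence feature that marks these messengers. Windows of 60 bases, 40 before the RefSeq start and 20 from it, are shown for a selection of the genes whose level changed and for 3 paralogs. The selection was made after the values and motifs were seen and is richer in TOP-like starts than the genes that rose as a whole, 7 of which had one and 7 of which had an entry without one. They come from RefSeq promoters of GRCm38.p6 and are written 5′ to 3′ on the gene's strand. Capitals mark a TOP-like stretch, a C followed by at least 4 more pyrimidines that begins within 5 bases of the start.
Rpl28: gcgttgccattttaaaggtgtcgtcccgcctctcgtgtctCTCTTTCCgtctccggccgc
Rps27: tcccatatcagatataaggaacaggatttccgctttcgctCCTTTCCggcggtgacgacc
Rpl31: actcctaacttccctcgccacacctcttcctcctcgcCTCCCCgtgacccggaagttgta
Rps10: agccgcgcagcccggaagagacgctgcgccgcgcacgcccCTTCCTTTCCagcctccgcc
Rpl15: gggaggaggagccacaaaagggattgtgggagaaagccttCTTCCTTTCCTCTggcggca
Rpl22: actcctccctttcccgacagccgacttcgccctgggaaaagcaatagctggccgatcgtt
Rpl13: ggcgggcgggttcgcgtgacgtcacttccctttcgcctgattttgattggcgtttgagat
Rps27l: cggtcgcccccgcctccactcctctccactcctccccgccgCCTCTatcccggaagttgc
Rpl22l1: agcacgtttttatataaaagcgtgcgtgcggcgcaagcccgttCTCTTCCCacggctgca
Rpl7l1: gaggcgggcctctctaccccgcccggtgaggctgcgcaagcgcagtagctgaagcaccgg

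The windows lie on the plus strand at chr7:4792925-4792984 for Rpl28, chr1:39367811-39367870 for Rpl31, chr4:152325686-152325745 for Rpl22 and chr8:123102310-123102369 for Rpl13. Those of the paralogs Rps27l and Rpl22l1 are also on the plus strand, at chr9:66946046-66946105 and chr3:28805468-28805527. On the minus strand are the windows of Rps27 at chr3:90213629-90213688, Rps10 at chr17:27635225-27635284, Rpl15 at chr14:18270967-18271026 and Rpl7l1 at chr17:46782637-46782696. A start-site entry was found for 61 of the 83 genes. A TOP-like start was present in 27 of these 61 (44.3%), against 18.5% of the 27025 genes with an entry, and its share was 42.1% among large and 47.8% among small subunit genes. The motif CCGGAAG, a core bound by ETS-family factors such as GABPA, was found on either strand of the 300-base promoters of 37.7% of the ribosomal protein genes, against 9.1% of all genes. AAGATGGC, the core of the YY1 site, was found in 8.2% against 2.9%, and TATAAA in 9.8% against 14.2%. For the ribosomal protein genes the entry closest to the start of the main coding transcript was used, and for all genes the first entry listed. The shares therefore rest on unlike choices of start. A match is a description of the annotated start, which can differ from the start used in these cells.

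Transcript levels were deposited as FPKM, that is, scaled by exon length and by library depth. Library totals, inferred from the step that 1 read makes in the values, were between 18138436 and 19046056 for the knockout libraries and between 17778420 and 18719202 for the control libraries. Reads recovered over all listed genes came to more than these totals, between 19786249 and 20709046 in knockout and between 19331889 and 20357589 in control libraries. The totals therefore serve as a scale of relative depth only, and the cause of the excess was not tested. The ribosomal protein genes took between 919225 and 1024191 of the recovered reads in knockout libraries and between 822859 and 945405 in control libraries. Carmil3 itself was listed at 0, 0.0118 and 0.0241 FPKM in knockout libraries, against 0.036, 0.0246 and 0.0117 FPKM in control libraries, so its level was too low to check the labels. Of 7 mammary epithelial markers 6 were listed at 1 FPKM or more, and their summed level was between 428 and 473 FPKM in knockout libraries and between 987 and 1080 FPKM in control libraries. Summed fibroblast markers were at most 0.454 FPKM in knockout and 1.78 FPKM in control libraries. Within that sum Col1a1 was lower in knockout (means 0.271 against 1.501 FPKM) and Dcn higher (0.154 against 0.0281 FPKM). The leukocyte markers lay between 2.51 and 3.2 FPKM against 3.0 and 3.4 FPKM. Of these 4 markers 2 were listed, and 1, Cd68, reached 1 FPKM and made up nearly all of the sum. The endothelial markers were at most 0.0531 and 0.0572 FPKM. The part of these differences in the results below was not tested. In bulk RNA, fewer cells of a kind and less RNA per cell cannot be told apart.

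Libraries within a group did not sit alike for these genes. Among the 78 genes that had at least 1 FPKM in at least 3 libraries, knockout replicate 3 was the highest of its group for 74. Control replicate 2 was the lowest of its group for 61, and control replicate 3 the highest for 64. The map of levels by library shows both patterns across large and small subunit genes.

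**Figure D1:**
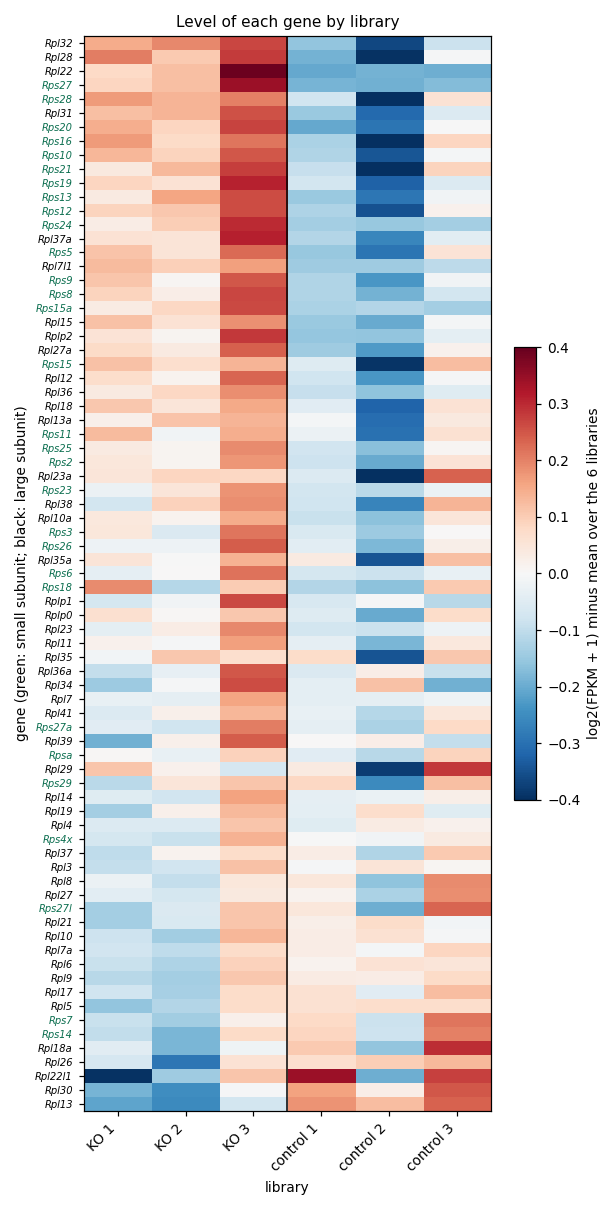
Level of 77 of the 78 tested genes in each library, as log2(FPKM + 1) minus the gene's mean over the 6 libraries, with genes down the page ordered by their change and libraries across it, knockout left of control. Red is above and blue below the gene's mean; of the 78, knockout replicate 3 is the highest of its group for 74 and control replicate 2 the lowest of its group for 61.

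The summed level of all 83 genes was 24910, 24930 and 28220 FPKM in knockout libraries, against 24330, 23130 and 25550 FPKM in control libraries. That was 8.64%, 8.61% and 9.26% of the FPKM of all listed genes in knockout libraries and 8.42%, 8.07% and 8.76% in control libraries. The groups overlapped on both scales. The large subunit sum averaged 16320 ± 1200 FPKM in knockout and 15680 ± 591 FPKM in control libraries (SD, n = 3 each), a ratio of 1.04. For the small subunit the averages were 9700 ± 711 FPKM in knockout and 8662 ± 616 FPKM in control libraries (SD, n = 3 each), a ratio of 1.12. The large to small ratio of summed FPKM was 1.676, 1.689 and 1.681 in knockout libraries, against 1.798, 1.881 and 1.759 in control libraries. All 3 knockout ratios lay below all 3 control ratios, and the ratio varied less among knockout libraries (SD 0.00656) than among control libraries (SD 0.0623). No test was made on these sums. They leave out ribosomal protein genes that the naming rule misses, among them the small subunit genes Rps3a1, Fau and Rack1. Rps3a1 alone averaged 980.1 FPKM in knockout and 887.5 FPKM in control libraries. Rows named as pseudogenes are left out as well. Of these, Rps2-ps10 averaged 1019 FPKM in knockout and 879.7 FPKM in control libraries, and Rpl3-ps1 243.5 and 269.2 FPKM. How far the ratio depends on the split of reads between genes and copies was not tested.

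**Figure D2:**
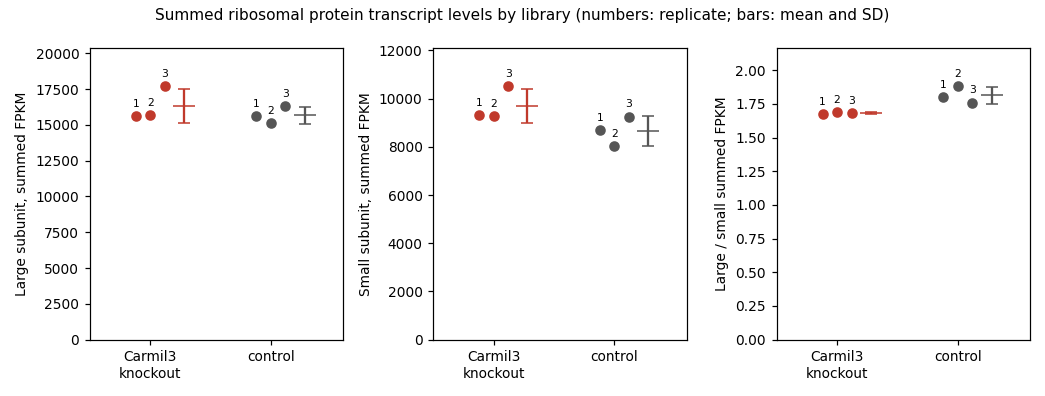
Summed FPKM of the large subunit genes (left), of the small subunit genes (middle) and their ratio (right) in each library, knockout left of control, with replicate numbers at the points and the mean and SD (n = 3) beside them. Only genes that the naming rule takes are summed. The large subunit sums overlap between groups, and the small subunit sums nearly meet (lowest knockout 9271 FPKM, highest control 9260 FPKM). The ratio is 1.676 to 1.689 in knockout and 1.759 to 1.881 in control libraries.

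The comparison of single genes asked which ribosomal protein transcripts differed between Carmil3 knockout and control cells. Of the 78 genes tested, 19 rose (24.4%) and 2 fell (2.56%), against 16.9% higher and 18.7% lower among all 11171 genes tested (limma on log2(FPKM + 1) at an adjusted p under 0.05, Benjamini-Hochberg over the 11171). Among the 958 genes that averaged 50 FPKM or more the shares were 19.9% higher and 18.2% lower. The share of ribosomal protein genes that rose was near that of abundant genes as a whole, and the share that fell was below it. The changes were small: log2 changes ran between -0.36 and 0.41, with a median of 0.12 against -0.01 over all genes tested, and 58 were positive and 20 negative. Knockout values lay above all control values for 24 of the 78 genes and below them for 3, against 24.2% and 26.4% of all genes tested.

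The 19 calls depended on single libraries. Without control replicate 1 there were 6 higher and without control replicate 2 there were 7, and without knockout replicates 1 and 3 there were 11 and 12. Leaving out knockout replicate 3 raised the number that fell to 7. Calls of 7 genes held in each of the 6 fits that left out 1 library: Rpl32, Rpl28, Rpl22, Rpl31, Rpl7l1 and Rps27, which rose, and Rpl13, which fell. Against a 1.5-fold change no gene was called, and none had an unadjusted p under 0.05 in that limma test (0 of 78).

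**Figure D3:**
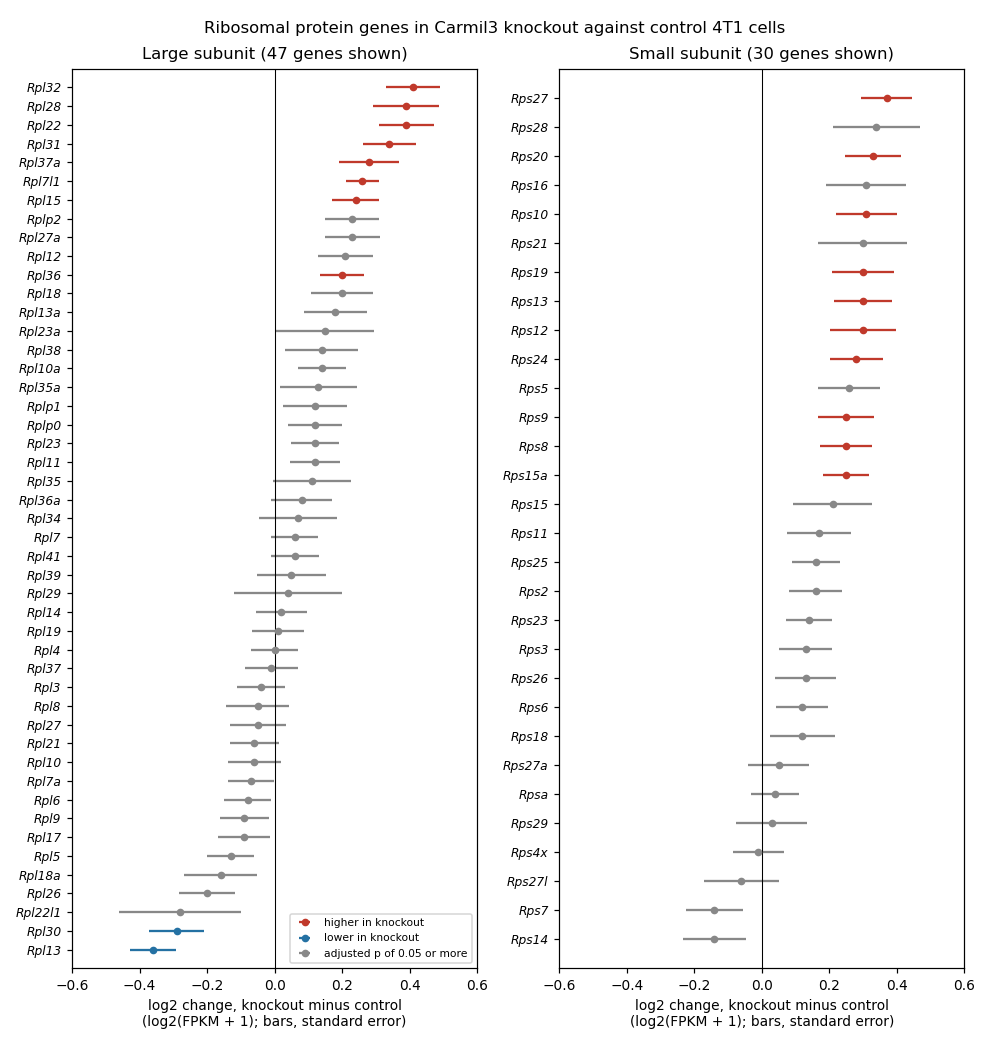
Log2 change (knockout minus control, on log2(FPKM + 1)) of the 47 large subunit genes tested (left) and 30 of the 31 small subunit genes tested (right), with its standard error as bars, ordered by size. Red points are genes called higher in knockout and blue points genes called lower (limma, adjusted p under 0.05); 8 large and 10 small subunit genes shown were higher, and 2 large subunit genes were lower.

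In the large subunit 8 of 47 tested genes rose (17.0%) and 2 fell (4.26%), with a median log2 change of 0.07. Over all genes tested 16.9% were higher and 18.7% lower, so the share of large subunit genes that rose was that of genes in general. Among small subunit genes 11 of 31 rose (35.5%), 0 of the 31 fell by limma or by limma-voom, 0 were lower at an unadjusted p under 0.05, and the median was 0.21. Of the small subunit genes 27 had positive changes and 4 negative ones (Rps14, Rps7, Rps27l and Rps4x, none called), while the large subunit had 31 positive changes. The number of small subunit genes that rose was 1 without control replicate 1, 2 without control replicate 2, and 5 without knockout replicate 1 or 3. The difference between the subunits was not tested. The head of the small subunit is the part that swivels as tRNAs move through the ribosome. Head genes that the naming rule takes all had positive changes (14 of 14), with a median of 0.28 and 5 called (35.7%). Rack1, a head protein gene outside the rule, had a log2 change of -0.01. Of the body genes 13 of 16 had positive changes, with a median of 0.16. In the body 6 of 16 rose (37.5%), against the same 16.9% of all genes. Over all genes tested 5476 of 11171 changes were positive, and some head genes changed little (Rps29 by 0.03, Rps27a by 0.05).

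Among the genes that rose, the largest change was that of Rpl32, a large subunit protein gene at chr6:115805505-115808747 on the minus strand. Rpl32 had 491.7, 507.3 and 534.3 FPKM in knockout libraries, against 397.9, 344.1 and 417.6 FPKM in control libraries. The groups did not overlap, and the log2 change was 0.41 (SE 0.081, adjusted p = 0.00547, limma). Exons of Cand2 or Snora7a cover 20% of the exon bases of Rpl32, and Cand2 was higher too, by 0.41. Whether shared reads play a part was not tested.

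Rpl28, a large subunit protein that budding yeast lacks, lies at chr7:4792874-4795066 on the plus strand. It had 182.9, 170.6 and 192.5 FPKM in knockout libraries, against 138.9, 120.3 and 157.9 FPKM in control libraries. Each knockout value was above each control value, with a log2 change of 0.39 (SE 0.097, adjusted p = 0.0147, limma). Its neighbour Ube2s, which covers 9.9% of its exon bases, was higher by 0.42.

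Rpl22 encodes an RNA-binding large subunit protein that lies on the ribosome's surface, and its gene is at chr4:152325742-152334071 on the plus strand. Its level was 117.6, 121.0 and 146.2 FPKM in knockout libraries, against 96.52, 97.4 and 96.97 FPKM in control libraries. Control values lay within 1 FPKM of each other and below each knockout value, and the log2 change was 0.39 (SE 0.082, adjusted p = 0.00671, limma). Rpl31, whose protein sits beside the exit of the nascent chain tunnel, is at chr1:39367842-39371911 on the plus strand. Rpl31 had 341.1, 344.5 and 374.4 FPKM in knockout libraries, against 282.9, 252.7 and 301.7 FPKM in control libraries. The groups were apart, with a log2 change of 0.34 (SE 0.078, adjusted p = 0.0101, limma). Exons of Tbc1d8, which was at most 0.762 FPKM in knockout and 1.008 FPKM in control libraries, cover 25.3% of its exon bases. It was the single member of the 8 tunnel exit and tunnel wall genes that was called.

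Rps27, a zinc-finger protein of the small subunit body, is at chr3:90212522-90213651 on the minus strand. It had 311.7, 318.9 and 372.8 FPKM in knockout libraries, against 258.0, 257.1 and 260.4 FPKM in control libraries. The control libraries were close together and below all knockout libraries, and the log2 change was 0.37 (SE 0.075, adjusted p = 0.00628, limma). Only 1.4% of the 50-base windows of its mRNA are its own among annotated transcripts, so reads may have been shared with copies. Rps20, a protein of the small subunit head, had 82.52, 79.05 and 90.09 FPKM in knockout libraries, against 64.46, 60.64 and 74.38 FPKM in control libraries. Its groups did not overlap, its log2 change was 0.33 (SE 0.084, adjusted p = 0.0156, limma), and the call was lost without control replicate 1 or 2. The other 12 conventional members that rose had log2 changes between 0.20 (Rpl36) and 0.31 (Rps10). They include Rps10, Rps19 and Rps24, which are mutated in the human anaemia Diamond-Blackfan, and Rpl15, whose human gene is also a cause of it. For all 12 the call was lost when control replicate 1 was left out, and each was lost in at least 2 of the 6 fits with 1 library left out.

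Both genes that fell belong to the large subunit. Rpl13, at chr8:123102350-123105244 on the plus strand, had 319.1, 309.5 and 351.7 FPKM in knockout libraries, against 419.4, 402.9 and 435.6 FPKM in control libraries. All knockout values were below all control values, and Rpl13 fell by 0.36 on the log2 scale (SE 0.068, adjusted p = 0.00417, limma), in each fit that left out 1 library. Rpl30, whose yeast protein binds its own transcript, is at chr15:34440505-34443640 on the minus strand. Its level was 58.55, 55.97 and 66.54 FPKM in knockout libraries, against 74.75, 68.03 and 79.42 FPKM in control libraries. The groups came close, at 66.54 and 68.03 FPKM, and Rpl30 fell by 0.29 (SE 0.081, adjusted p = 0.0233, limma). The Rpl30 call held in 2 of the 6 fits that left out 1 library.

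Structures with known tasks showed no call outside these genes. The P stalk, which recruits and activates the translational GTPases, is made of Rplp0 with the acidic proteins Rplp1 and Rplp2, and sits on Rpl12. Rplp2 had 178.3, 172.9 and 208.7 FPKM in knockout libraries, against 154.1, 153.7 and 167.0 FPKM in control libraries, which did not overlap (log2 change 0.23, adjusted p = 0.0514, limma). Rpl12 had 289.3, 278.7 and 324.4 FPKM in knockout libraries, against 260.6, 234.6 and 274.6 FPKM in control libraries, with a log2 change of 0.21 (adjusted p = 0.0735, limma). Rplp0 and Rplp1 each had a log2 change of 0.12 and overlapping groups. Rpl5 and Rpl11, which with 5S RNA form the particle that can bind the p53 inhibitor Mdm2, had opposite signs and overlapped. Rpl5 had 236.4, 242.9 and 277.1 FPKM in knockout libraries, against 275.0, 276.9 and 276.6 FPKM in control libraries, with a log2 change of -0.13 (adjusted p = 0.168, limma). Rpl11 had a log2 change of 0.12 (adjusted p = 0.254, limma), with 148.4, 146.1 and 164.3 FPKM in knockout libraries and 142.9, 129.1 and 150.9 FPKM in control libraries. Rpl10a of the L1 stalk, which helps deacylated tRNA leave, had a log2 change of 0.14 (adjusted p = 0.171, limma). Rpl3, Rpl8 and Rpl10, near the peptidyl transferase centre, had log2 changes between -0.06 and -0.04, none called.

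Rps3a1, Fau and Rack1, ribosomal proteins outside the naming rule, gave no call by limma either, 0 of 3, with 1 (Fau) at an unadjusted p under 0.05 and 0 called by limma-voom. Rps3a1 had 937.5, 939.2 and 1064 FPKM in knockout libraries, against 892.9, 854.2 and 915.3 FPKM in control libraries, a log2 change of 0.14 with groups that did not overlap (adjusted p = 0.159, limma). Fau, whose product is cut to ribosomal protein eS30, had 289.5, 290.7 and 321.6 FPKM in knockout libraries, against 263.4, 260.4 and 281.8 FPKM in control libraries (log2 change 0.16, adjusted p = 0.0879, limma). Rack1, the scaffold on the small subunit head, had 255.8, 242.9 and 276.4 FPKM in knockout libraries, against 259.4, 244.2 and 279.4 FPKM in control libraries (log2 change -0.01, adjusted p = 0.898, limma).

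The paralog-like genes were compared with their partners within each library, as the paralog's FPKM in percent of the partner's. Of 7, Rpl7l1, Rpl22l1 and Rps27l passed the filter, and Rpl3l and Rps4l had libraries listed at 0, so no ratio was tested for them. The exact permutation test of 3 against 3 libraries cannot give a p under 0.1, which each of the 4 pairs tested reached (two-sided; adjusted p = 0.1 over the 4 pairs). Rps27l, a gene that p53 induces in human cells, was at 22.7%, 23.5% and 22.6% of Rps27 in knockout libraries, against 31.2%, 26.4% and 35.3% in control libraries. Each knockout ratio was below each control ratio, with a log2 difference of -0.42. Rps27l itself had 70.9, 74.97 and 84.32 FPKM in knockout libraries, against 80.61, 67.96 and 91.85 FPKM in control libraries, and the groups overlapped (adjusted p = 0.731, limma), while Rps27 rose. Rpl22l1 was at 5.84%, 6.92% and 6.96% of Rpl22 in knockout libraries, against 12.5%, 8.25% and 11.9% in control libraries, a log2 difference of -0.71. Rpl22l1 had 6.863, 8.368 and 10.17 FPKM in knockout libraries, against 12.11, 8.031 and 11.5 FPKM in control libraries, with overlapping groups (adjusted p = 0.269, limma).

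Rpl7l1 went the other way. It is related to Rpl7, and its yeast relative Rlp7 acts in the assembly of the large subunit. Rpl7l1 had 78.61, 76.83 and 80.62 FPKM in knockout libraries, against 64.98, 65.09 and 66.83 FPKM in control libraries, well apart in relation to the spread, and its log2 change was 0.26 (SE 0.049, adjusted p = 0.00423, limma). It was at 11.7%, 11.5% and 10.5% of Rpl7 in knockout libraries, against 9.71%, 9.72% and 9.84% in control libraries (log2 difference 0.2), while Rpl7 overlapped between groups. Rpl36al, a paralog of Rpl36a, was at 0.226%, 0.223% and 0.149% of Rpl36a in knockout libraries, against 0.254%, 0.267% and 0.297% in control libraries (log2 difference -0.47). Its level was at most 0.399 FPKM in knockout and 0.513 FPKM in control libraries, and at most a few reads lie behind its lower values, the fewest being 8 in a library. Rpl6l was at most 0.121 FPKM in knockout and 0.258 FPKM in control libraries, and its ratio to Rpl6, added after its values were seen, gave an exact permutation p = 0.2.

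**Figure D4:**
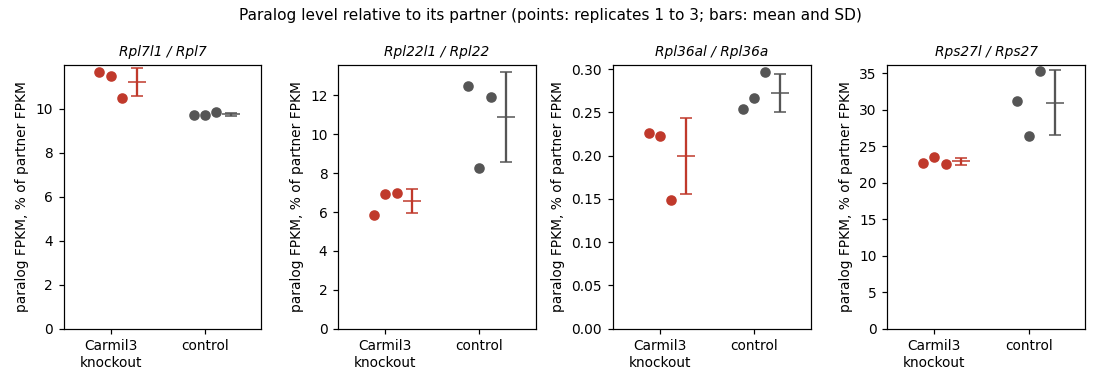
FPKM of 4 paralogs in percent of the FPKM of their partners (each axis starts at 0), in each library, knockout left of control, with the mean and SD (n = 3) beside the points. Rpl22l1, Rpl36al and Rps27l lie lower relative to their partners in knockout libraries, Rpl7l1 higher, and in each pair the groups do not overlap.

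Levels spanned a wide range. The highest of the 83 genes was Rplp1, with 1616, 1683 and 2038 FPKM in knockout libraries, against 1625, 1693 and 1573 FPKM in control libraries. Rps24 followed, with 1101, 1154 and 1325 FPKM in knockout libraries, against 980.2, 970.4 and 980.9 FPKM in control libraries, and it rose (log2 change 0.28, adjusted p = 0.0232, limma). Rpl4 and Rpl8 came next at 833.1 and 816.2 FPKM over all libraries, which the spread between replicates does not separate. The lowest genes that passed the filter were Rpl13a (7.07 FPKM), Rpl22l1 (9.51 FPKM), Rpl35a (22.18 FPKM) and Rps18 (26.78 FPKM). Rpl24, a conventional large subunit gene, was listed at 0.408, 0.839 and 0.428 FPKM in knockout libraries, against 0.267, 0.437 and 0.259 FPKM in control libraries.

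The levels were set beside the annotation. In GENCODE M21, exons of another gene cover 47.0% of the exon bases of Rpl24 (Gm28037), 66.2% of those of Rpl35 (Arpc5l and Wdr38), 62.3% of those of Rpl23a (Snord42b and Tlcd1) and 35.4% of those of Rpl13a (Gm45713, Mir5121 and Snord33). The 10 tested genes with at least 20% overlap had a median of 112 FPKM, against 252 FPKM for the 68 others. FPKM also depends on the exon length used, which includes every annotated exon: for Rps24 it was 6256 bases against an mRNA of 1613 bases, for Rpl35a 3526 against 491 bases, and for Rplp1 499 against 499 bases. A low level of these genes can therefore not be told apart from reads that were not counted.

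Copies also held many reads. The row Rps2-ps10, a pseudogene by its name, had 1033, 985.9 and 1038 FPKM in knockout libraries, against 913.7, 750.9 and 974.5 FPKM in control libraries. Rps2 itself, a protein at the messenger entry, had 152.2, 148.8 and 167.0 FPKM in knockout libraries, against 139.2, 128.1 and 153.2 FPKM in control libraries. Rpl3-ps1 was at 243.3, 222.9 and 264.2 FPKM in knockout libraries, against 268.2, 274.4 and 265.0 FPKM in control libraries, close to Rpl3 at 249.5, 252.7 and 289.2 FPKM against 265.7, 276.1 and 267.9 FPKM. With the rows named as pseudogenes added to their parent genes, 18 genes rose and 2 fell. The call that was lost was that of Rps13, whose copy Rps13-ps1 had 67.82, 1.004 and 70.91 FPKM in knockout libraries, against 57.25, 57.08 and 53.92 FPKM in control libraries.

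The change of a ribosomal protein gene went with that of the genes beside it. For each gene the tested genes closest to it were taken, up to 20 to either side. In each library the median of these neighbours' deviations from their own means was computed on the log2 scale. The shift of the neighbours is the knockout minus control difference of these medians. Across the 78 genes, which share the 6 libraries, the change and this shift had r = 0.71 and rho = 0.71, a description given without a test. Across 886 other genes averaging 50 FPKM or more the values were r = 0.3 and rho = 0.53. Rpl13 on chromosome 8 fell by 0.36 and its neighbours were lower too, at -0.28, while Rpl32 on chromosome 6 was higher by 0.41 and its neighbours by 0.19. Chromosome 7 held the most tested members, 14, of which 6 rose, where 16.9% of all genes tested were higher. Its members had a median of 0.25 and a median neighbour shift of 0.13. Of the 7 tested members on each of chromosomes 9, 11 and 17, in that order 0, 0 and 3 rose. With the median deviation of the neighbours subtracted in every library, Rpl31 was the single gene called (centred log2 change 0.30, adjusted p = 0.0251, limma). The median of all 78 genes was then 0.10, and that of the small subunit genes 0.14 against 0.05 for the large subunit genes. Centred changes of Rpl28 (0.26, adjusted p = 0.0551), Rpl7l1 (0.17, adjusted p = 0.0534) and Rps27 (0.22, adjusted p = 0.0554) stayed close to the limma threshold, and that of Rpl13 was -0.08 (adjusted p = 0.426).

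**Figure D5:**
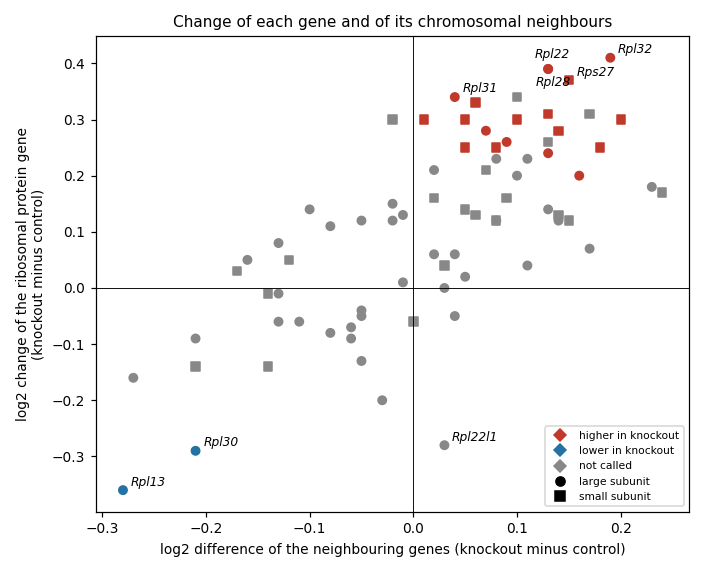
Log2 change of each of the 78 genes (vertical axis) against the shift of its neighbours (horizontal axis), both knockout minus control. The shift is the group difference of per-library median deviations over up to 20 tested genes to either side. Circles are large and squares small subunit genes, coloured by call. The 2 called lower (Rpl13 and Rpl30) have neighbours that were lower too, and r = 0.71 over the 78 genes.

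The changes were also set beside sequence features. The median log2 change was 0.16 for the 27 tested genes with a TOP-like start and 0.12 for the 31 without one, and 7 rose in each set. With the CCGGAAG motif it was 0.12 in 23 genes and without it 0.14 in 35. Across the 78 genes the log2 change had r = 0.1 (rho = 0.08) with the GC content of the mRNA and r = 0.1 (rho = -0.07) with mRNA length. With level it had r = -0.04 (rho = -0.16). With the share of an mRNA's 50-base windows found in no other annotated gene it had r = 0.25 and rho = 0.22. The mRNA is 1 annotated coding transcript per gene, at 5179 bases for Rps15a and 3706 bases for Rps20, and can differ from the messenger in these cells.

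Genes around the ribosome were counted in the same fit, where 16.9% of all genes tested were higher and 18.7% lower. Cytosolic ribosomal proteins had 24.4% higher and 2.56% lower, whereas mitochondrial ribosomal protein genes had 6 of 77 in each direction (7.79%), with a median of 0.01. Among those with a mean of at least 5 FPKM in 1 group, Mrps6 (log2 change 0.41) and Mrpl49 (0.36) rose, and Mrpl34 (-0.52) and Mrpl16 (-0.26) fell. Of 55 ribosome assembly genes 4 rose (7.27%) and 13 fell (23.6%), with a median of -0.04. The share of falls was near that of all genes tested, and the share of rises was below it. Pno1 and Ltv1, assembly factors of the small subunit, fell by 0.55 and by 0.54, while Gnl3, a nucleolar GTPase, and Noc2l rose by 0.26 and 0.22. Of 36 initiation factor genes 2 rose (5.56%) and 8 fell (22.2%), again fewer rises than among all genes and a near share of falls. Eif2s1, the alpha subunit of eIF2, fell by 0.44 and Eif5 by 0.32, while Eif3k and Eif4e, the cap-binding protein, rose by 0.33 and 0.20. RNA polymerase I genes had 3 of 20 in each direction, with Polr1a, the largest subunit, and Polr2l higher by 0.40 and 0.30, and Taf1a and Twistnb lower at -0.31 and -0.27. Among 18 other TOP messenger genes and elongation factors 2 rose and 2 fell. These were Tpt1 (log2 change 0.62) and Vim (0.26) on the higher side, and Cct4 (-0.21) and Pabpc1 (-0.18) on the lower. Of 18 genes of the mTORC1, LARP1 and MYC list, Myc (0.44) and Eif4ebp1 (0.43) were higher and Gabpa (-0.21), Larp4 (-0.18) and Max (-0.17) lower.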

How the data were processed

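RNA was sequenced from 3 Carmil3 knockout and 3 control libraries of 4T1 cells. The authors deposited 1 table whose values have the form of FPKM, a unit read from the values. The tools named, per the submitters' processing notes, are HTSeq 0.6.0, TopHat2 2.0.12, TopHat, Bowtie2, Bowtie and CASAVA, and the build is mm10. No source used here states the strand setting, the annotation or the handling of reads that match several places. The genes and gene lists were chosen with earlier results of these data known.

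Symbols came from GENCODE M21 (GRCm38, also called mm10) for 23587 rows. The 11171 genes that reached 1 FPKM in 3 or more libraries were tested in R 4.3.3 on the scale log2(FPKM + 1): limma 3.58.1 was run with a trended and robust eBayes step, and p-values were adjusted by Benjamini-Hochberg over these genes, with calls at 0.05. This scale understates changes of low genes. FPKM times the union exon length of the annotation gave whole reads, within 0.02, for 92.0% to 92.3% of values of up to 500 reads, and so the relative depth and counts for limma-voom. Paralog ratios were tested by exact permutation with scipy 1.17.1. Other steps used pandas 2.3.3, numpy 2.4.6 and, for figures, matplotlib 3.10.9 under Python 3.11.15.

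Named genes were the 6 largest rises and up to 6 largest falls among called members, all paralog-like members and their partners, the 4 highest and the 4 lowest tested members, the stalk and 5S particle members, the ribosomal proteins outside the naming rule, and up to 2 called genes per direction of each other list. A few further genes were named after their values were seen. Alternatives were quantile and median-of-ratios scaling, a filter at 5 FPKM or none, pseudocounts of 0.1 and 5, limma without trend and robust, a 1.5-fold null, the replicate number as a block, limma-voom, centring on neighbours, each library left out, and, added after seeing the data, named pseudogenes summed into their parents. The fit was tested on simulated data. Symbols Rpl10l, Rpl32l, Rpl39l and Rps12l1, which the rule would take, were not analysed here. Some genes that the naming rule takes are counted but not reported singly here.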

Additional observations from a re-analysis of the deposited data

How the results depend on the processing

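The median log2 change stayed positive for the 78 genes, the large and the small subunit genes under every alternative run (for all 78 between 0.07 and 0.19 with 1 library left out). The counts were less stable. Tested for a change beyond 1.5-fold, both subunits had 0 genes higher and 0 lower. Centred on neighbours, 1 gene was higher (1 large, 0 small) and 0 lower. With no filter, 5 were higher (4 large, 1 small) and 1 lower (1 large). Quantile scaling gave 5 lower (4 large, 1 small). With 1 library left out, between 6 and 20 genes were higher and between 1 and 7 lower: 5 to 8 large and 1 to 12 small subunit genes were higher, and 1 to 7 large subunit genes were lower. Fewer libraries were fitted there, and the cause of the other changes was not tested.

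All 21 calls were kept with median-of-ratios scaling, pseudocounts of 0.1 and 5, a filter at 5 FPKM and limma-voom (25 higher, 2 lower). The replicate block gave 27 higher and 2 lower and kept all 21, but the labels do not state that replicate numbers pair the libraries. Deviations from the group mean had correlations of -0.06, 0.15 and 0.1 between libraries of the same number, and whether they pair was not tested. Uncalled genes whose sign changed were, centred on neighbours, Rpl11 (-0.02), Rpl13a (-0.05), Rpl3 (0.01), Rpl4 (-0.03), Rpl6 (0.00) and Rps4x (0.12), and with quantile scaling Rpl4 (-0.06). With 1 library left out the ranges were -0.10 to 0.00 for Rpl3, -0.02 to 0.22 for Rpl35a, -0.02 to 0.15 for Rpl36a, -0.05 to 0.03 for Rpl4, 0.00 to 0.09 for Rpl7, -0.14 to 0.03 for Rpl8, -0.17 to 0.05 for Rps27l and -0.09 to 0.03 for Rps4x. Paralog ratios kept their direction throughout. Depth limits Rpl36al, Rpl6l, Rpl3l, Rps4l and Rpl24, which rest on few reads.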

Other observations

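Rps6-ps1, a copy of Rps6 by its name, had 51.38, 67.08 and 70.57 FPKM in knockout libraries, against 44.95, 42.15 and 46.3 FPKM in control libraries, and rose (log2 change 0.48, adjusted p = 0.0127, limma). Rps6 itself overlapped between groups, with 617.2, 633.1 and 735.8 FPKM in knockout libraries against 602.3, 595.7 and 618.6 FPKM in control libraries. Rpl14-ps1 had 54.11, 52.8 and 58.08 FPKM in knockout libraries, against 61.31, 65.55 and 61.85 FPKM in control libraries, and fell by 0.19 (adjusted p = 0.0308, limma), while Rpl14 overlapped between groups (log2 change 0.02).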
